A study of Mus musculus with 19 samples.

Results

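Follicular helper T (Tfh) cells, sorted as CXCR5hi PD-1hi CD4+ cells without use of the BCL6-YFP reporter, were compared with naive CD4+ T cells over every gene that the arrays measured. The arrays of this comparison were chosen by their titles alone: 3 of Bcl6yfp/+ and 3 of Bcl6+/+ CXCR5hi PD-1hi cells, against 2 of naive cells, 8 of the 19 mouse arrays in the series. The Bcl6yfp/+ cells carried 1 allele with a YFP reporter of BCL6 and were all taken on day 7 after immunization. Of the Bcl6+/+ cells, which had no reporter allele, replicates 1 and 2 were from day 10 and replicate 3 from day 7. The labels place the Tfh cells in lymph nodes of C57BL/6J mice, the strain given for all arrays. They describe transfer of OT-II cells, which carry a transgenic receptor for ovalbumin, and subcutaneous immunization with the haptenated protein NP-OVA in complete Freund's adjuvant, in 1 text for all samples. That text speaks of Bcl6yfp/+ OT-II cells alone, so whether the Bcl6+/+ cells were also transferred OT-II cells is not given in the sources used here. Naive cells came from spleens of mice without immunization, sorted by surface markers that include low CD44, so organ and immunization differ together with cell state. Further comparisons used 8 arrays of CXCR5hi PD-1hi cells sorted on YFP, 4 positive and 4 negative, from days 7 and 10, and 3 arrays of CXCR5lo PD-1lo cells from day 7. Separate animals behind the replicates are nowhere stated, and a p-value here may therefore reflect technical spread alone.

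Tfh cells give help to B cells in germinal centres. The chemokine receptor CXCR5 brings them into the follicle, the repressor BCL6 keeps their programme in place, and their cytokines IL-21 and IL-4 act on the B cells they contact. PD-1 is an inhibitory receptor that stays high on these cells under continued antigen contact. Naive CD4+ T cells circulate through blood and lymphoid organs, and their quiescent state depends on factors such as KLF2 and on survival signals through the IL-7 receptor.

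Of the genes at the 2 ends of the comparison, Il21 was among the highest in Tfh cells and Pdlim4 had the lowest fold change. Their promoters are shown because these genes stood at opposite ends of the range. Each sequence is the 250 bases before the gene's start in RefSeq (build GRCm38.p6), read 5′ to 3′ along the gene's strand, the minus strand for both, and capitals mark matches on either strand to TGGAAA, a core bound by NFAT, the calcium-dependent factor of T cell receptor signalling. The stretches are chr3:37232637-37232886 for Il21 and chr11:54069018-54069267 for Pdlim4.
Il21: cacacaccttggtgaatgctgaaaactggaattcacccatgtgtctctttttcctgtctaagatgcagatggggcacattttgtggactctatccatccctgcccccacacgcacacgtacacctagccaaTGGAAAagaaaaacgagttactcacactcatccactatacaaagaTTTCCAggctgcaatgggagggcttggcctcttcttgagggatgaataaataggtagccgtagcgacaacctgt
Pdlim4: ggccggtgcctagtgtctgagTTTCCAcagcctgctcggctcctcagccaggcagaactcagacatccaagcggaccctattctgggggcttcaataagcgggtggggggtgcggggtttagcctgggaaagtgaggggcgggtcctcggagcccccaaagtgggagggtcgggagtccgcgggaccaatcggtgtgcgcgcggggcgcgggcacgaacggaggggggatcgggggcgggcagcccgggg
The core was found 2 times before Il21 and 1 time before Pdlim4, and in 18.6% of 32841 promoter stretches of the same length. The E-box letters CANNTG, which basic helix-loop-helix factors such as ASCL2 and BHLHE40 can bind, occurred 2 times before Il21 and 0 times before Pdlim4, against 66.2% of the stretches with at least 1 match. These matches describe the letters in the window and say nothing of binding.

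All values below are log2 GCRMA levels as deposited, from Affymetrix probe sets (1 per gene, the one with the highest mean), where a level near 2 is the floor of the scale and a fold change against it depends on that floor. Of the genes named by a single symbol, 9930 reached level 4 on at least 2 arrays and were tested. Array medians ran from 2.40 to 2.99 over the series, and the number of arrays limits the precision. Arrays fell into 7 sets of like value distribution, taken as arrays normalized together. Bcl6yfp/+ replicate 1 shared a set with naive replicate 2, and replicates 2 and 3 of both genotypes formed another. Bcl6+/+ replicate 1 stood alone, while naive replicate 1 shared its set with YFP-sorted arrays. The extraction text named TRIzol or RNeasy for the 6 Tfh arrays and naive replicate 2, and TRIzol alone for naive replicate 1 and all other arrays. Y-linked transcripts were present in the 6 Tfh arrays and naive replicate 2, where Eif2s3y was between 12.89 and 13.84, and Xist was at 13.40 in naive replicate 1, against 2.15 in naive replicate 2. Between the 2 naive arrays, 1022 genes were at least 1 log2 unit higher and 335 at least 1 unit lower in replicate 1. Extraction text and sex-linked transcripts were thus matched to the Tfh arrays in 1 naive array and not in the other. The set was matched only between Bcl6yfp/+ replicate 1 and naive replicate 2.

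Replicate 1 of each genotype stood apart from the other Tfh arrays. The same split ran between sets, since the other 4 Tfh arrays formed 1 set and neither first array was in it. Replicate and set cannot be told apart here. Pearson correlations over the 9930 genes were at least 0.994 among replicates 2 and 3 of both genotypes, 0.953 between the 2 first arrays, and 0.935 to 0.961 between a first array and the others. In both first arrays 347 genes were at least 1 log2 unit above, and 419 at least 1 unit below, all 4 other Tfh arrays. The gaps included immediate early response genes. The AP-1 gene Fosb was at 10.10 and 11.17 in the first Bcl6yfp/+ and Bcl6+/+ arrays, while the other 4 Tfh arrays lay between 2.23 and 4.37 and the naive arrays at 2.19 and 2.91. The small MAF protein gene Maff was at 8.97 and 8.997 in the first arrays, with the other Tfh arrays between 2.33 and 2.36 and naive cells at 4.47 and 6.30. Nr4a2, an orphan nuclear receptor induced by receptor signalling, was at 8.74 and 10.65 in the first arrays, the other 4 lying between 2.70 and 3.86. All 3 were near the floor in replicates 2 and 3 of both genotypes, and they were chosen after their values were seen. Dusp4, a phosphatase gene, and Spry1, an inhibitor of receptor tyrosine kinase signalling, followed the same order, with 7.000 and 7.04 for Dusp4 in the first arrays and 2.61 to 3.89 in the others. On the low side, the RNA-binding protein gene Rbm47 was at 6.21 and 3.40 in the first arrays and between 9.29 and 9.71 in the other 4. Counts over all genes for the 6 Tfh arrays, and those of some lists, are also given without the first arrays. Other list counts rest on all 6 Tfh arrays and may move without the first arrays.

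**Figure D1:**
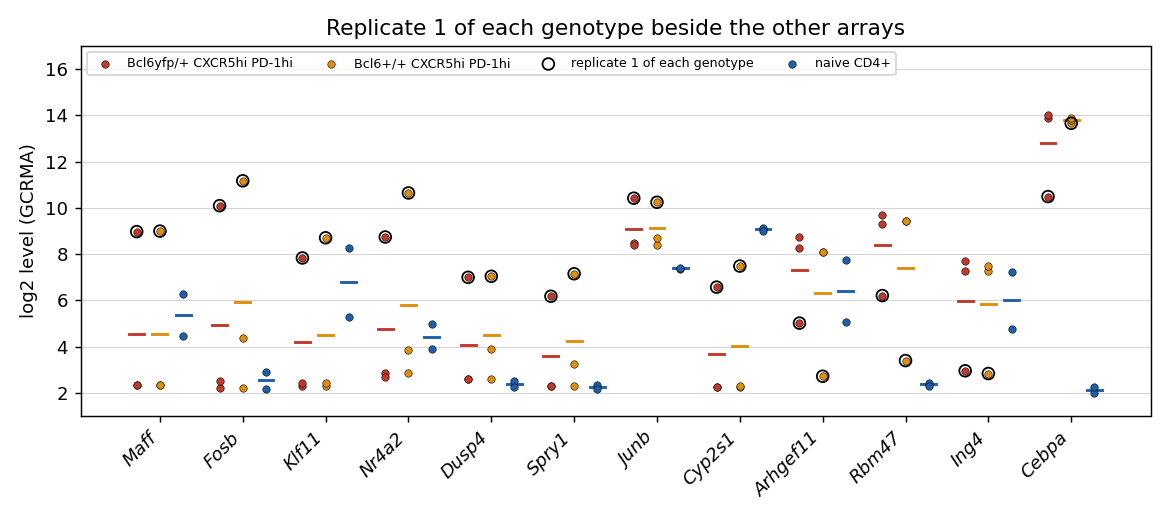
Log2 GCRMA levels (vertical axis) of 12 genes in Bcl6yfp/+ and Bcl6+/+ CXCR5hi PD-1hi arrays (3 each) and naive arrays (2). Circled points are replicate 1 of each genotype, short bars are group means, and genes from Maff to Cyp2s1 are high and Arhgef11, Rbm47 and Ing4 low in the circled arrays. For Cebpa only the Bcl6yfp/+ first array, at 10.49, lies apart.

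Tfh cells differed from naive cells in 3410 of 9930 genes, of which 2822 were higher and 588 lower. That is 34.3% of the genes tested, 28.4% higher and 5.92% lower, at a limma adjusted p under 0.05 with the Benjamini-Hochberg method over all genes. The median log2 fold change of all genes was 0.50, so the whole distribution was shifted, and the split between higher and lower moved with the scaling. Quantile normalization gave 1922 higher and 1320 lower genes at a median of 0.07, and the set as a block gave 1202 higher and 1249 lower at a median of 0.00. Centring on array medians kept the excess of higher genes, with 2398 higher and 460 lower at a median of 0.64. Among the genes called both ways, 2349 with quantile normalization and 1497 with the set as a block, 0 had the opposite sign. A block for the replicate number left 2243 calls. It joined same-numbered arrays of all groups, naive replicate 2 among them, and not those of the 2 genotypes alone. Leaving out the first array of each genotype raised the count to 5718, and leaving out Bcl6yfp/+ replicate 1 alone to 5257. Without naive replicate 1 the count was 1853, and without naive replicate 2 it was 1716. The Tfh arrays lay wholly above both naive arrays in 25.6% of genes and wholly below them in 6.69%.

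The genes of the sort were checked first. Cxcr5 was at 12.92, 13.83 and 13.83 in Bcl6yfp/+ cells and 13.62, 13.83 and 13.86 in Bcl6+/+ cells, against 2.26 and 2.39 in naive cells. Pdcd1, the gene of PD-1, had 13.75, 14.21 and 14.22 in Bcl6yfp/+ cells and 13.85, 14.28 and 14.38 in Bcl6+/+ cells, against 5.52 and 6.43 in naive cells. Both follow from the sort, as does Cd44 at 12.50, 13.37 and 13.51 in the Tfh arrays, against 9.35 and 8.96 in the naive arrays (lowest, median and highest of the 6 Tfh arrays here and below). Bcl6, which the sort of these 6 arrays did not use, was at 13.66, 14.34 and 14.45 in Bcl6yfp/+ cells and 14.39, 14.23 and 14.42 in Bcl6+/+ cells, against 11.44 and 11.52 in naive cells (log2 fold change 2.77 ± 0.24 SE, adjusted p = 2.66e-07). All 6 Tfh arrays lay above both naive arrays, which themselves were far above the floor. Cd4 was high everywhere, at 13.60, 14.18 and 14.33 in the Tfh arrays, against 13.87 and 13.29 in the naive arrays, and missed the threshold (adjusted p = 0.0543).

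The 4 marker genes given for this comparison split by direction. Cxcr5 and Lag3 were high in Tfh cells, whereas Pdlim4 and Ctsw were high in naive cells and thus mark the naive side. Lag3, an inhibitory receptor that binds MHC class II, was at 11, 12.18 and 12.02 in Bcl6yfp/+ and 11.85, 11.99 and 12.003 in Bcl6+/+ cells, against 2.19 and 2.22 in naive cells (log2 fold change 9.63 ± 0.28 SE, adjusted p = 3.2e-13). Pdlim4, a PDZ and LIM domain protein of the actin cytoskeleton, was at 2.29, 2.04 and 2.02 in Bcl6yfp/+ and 2.20, 2.04 and 2.04 in Bcl6+/+ cells, against 11.93 and 11.59 in naive cells (log2 fold change -9.65 ± 0.43 SE, adjusted p = 6.92e-11). Ctsw, the cysteine protease cathepsin W known from cytotoxic lymphocytes, was at 4.32, 2.16 and 2.14 in Bcl6yfp/+ and 2.33, 2.26 and 2.16 in Bcl6+/+ cells, against 12.35 and 11.43 in naive cells (log2 fold change -9.33 ± 0.64 SE, adjusted p = 1.18e-08). For all 4 genes the groups lay more than 5 log2 units apart, and each kept its call in the 22 alternative settings run. The 4 were given as markers of this comparison, Cxcr5 was part of the sort, and the settings reuse these arrays. Neither result is therefore a separate check.

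The 10 genes with the highest fold changes among called genes without overlap were Tox2, Il21, Cxcr5, Cebpa, Il1r1, Gcnt1, S100a6, Il4, H2-Q2 and Bhlhe40. Each was near the floor in both naive arrays, none above 3.11, and above 10 in every Tfh array. Tox2, an HMG-box factor of Tfh differentiation, was at 14.02, 14.39 and 14.48 in the Tfh arrays, against 2.53 and 3.11 in the naive arrays (log2 fold change 11.53 ± 0.31 SE, adjusted p = 1.74e-13). Il21 was at 12.82, 13.87 and 13.95 in the Tfh arrays, against 2.37 and 2.18 in the naive arrays (log2 fold change 11.32 ± 0.48 SE, adjusted p = 4.06e-11). Cebpa, a transcription factor best known from myeloid cells, liver and fat, was at 10.49, 13.84 and 14.03 in the Tfh arrays, against 2.02 and 2.25 in the naive arrays (log2 fold change 11.16 ± 0.84 SE, adjusted p = 3.96e-08). Its lowest value came from Bcl6yfp/+ replicate 1, and the other 5 Tfh arrays lay between 13.66 and 14.03, a spread far under the distance to naive cells. Il1r1, the signalling receptor for IL-1, was at 12.54, 13.51 and 13.75 in the Tfh arrays, against 2.15 and 2.67 in the naive arrays (log2 fold change 10.88 ± 0.45 SE, adjusted p = 3.18e-11). Gcnt1, a glycosyltransferase that builds branched O-glycans and in T cells is known for the activation-associated form of CD43, was at 12.23, 13.72 and 13.84 in the Tfh arrays, against 2.33 and 2.49 in the naive arrays. The calcium-binding protein gene S100a6 was at 11.87, 12.97 and 13.54 in the Tfh arrays, against 2.34 and 2.15 in the naive arrays. Bcl6yfp/+ replicate 1 was the lowest Tfh array for Il1r1, Gcnt1 and S100a6, as for most of these 10 genes. Il4 was at 10.23, 13.20 and 13.38 in the Tfh arrays, against 2.06 and 2.32 in the naive arrays (log2 fold change 10.47 ± 0.56 SE, adjusted p = 7.31e-10), with Bcl6yfp/+ replicate 1 lowest. Bhlhe40, an activation-induced repressor that controls cytokine genes in T cells, was at 11.61, 11.80 and 12.95 in the Tfh arrays, against 2.33 and 2.06 in the naive arrays, and here the 2 first arrays were the highest. H2-Q2, at 11.29, 12.79 and 13.11 in the Tfh arrays, against 2.48 and 2.42 in the naive arrays, belongs to a family of near-identical MHC class Ib genes, so which member the probe set measured is uncertain.

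The 10 lowest were Pdlim4, Igfbp4, Ctsw, Tdrp, Itgb3, Dapl1, Tent5a, St8sia6, Airn and Lypd6b. Their naive levels were at least 9.68, and in Tfh arrays none exceeded 7.05, the value of Dapl1 in Bcl6yfp/+ replicate 1. Igfbp4, a binding protein for insulin-like growth factors that is high in naive T cells, was at 2.53, 2.55 and 5.77 in the Tfh arrays, against 13.26 and 12.33 in the naive arrays (log2 fold change -9.53 ± 0.65 SE, adjusted p = 1.18e-08). Its 5 other probe sets changed in the same direction. Dapl1, a gene related to the death-associated protein DAP, was at 4.39, 5.29 and 7.05 in the Tfh arrays, against 14.37 and 13.88 in the naive arrays (log2 fold change -8.73 ± 0.71 SE, adjusted p = 1.07e-07). Itgb3, the integrin beta-3 subunit, was at 2.11, 2.85 and 5.71 in the Tfh arrays, against 12.67 and 11.91 in the naive arrays (log2 fold change -8.74 ± 0.73 SE, adjusted p = 1.33e-07), its 2 highest Tfh values coming from the first arrays. For Tent5a, St8sia6 and Airn most Tfh arrays were at the floor. Tent5a, a noncanonical poly(A) polymerase, was at 2.63, 2.81 and 3.31 in the Tfh arrays, against 12.46 and 10.35 in the naive arrays. St8sia6, a sialyltransferase, was at 2.28, 2.33 and 5.89 in the Tfh arrays, against 11.68 and 11.26 in the naive arrays. Airn is a noncoding antisense transcript at the Igf2r locus, and its probe set lay at 2.25, 2.28 and 2.92 in the Tfh arrays, against 11.09 and 9.95 in the naive arrays. It overlaps Igf2r on the other strand, so that signal of the 2 genes may not be told apart.

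**Figure D2:**
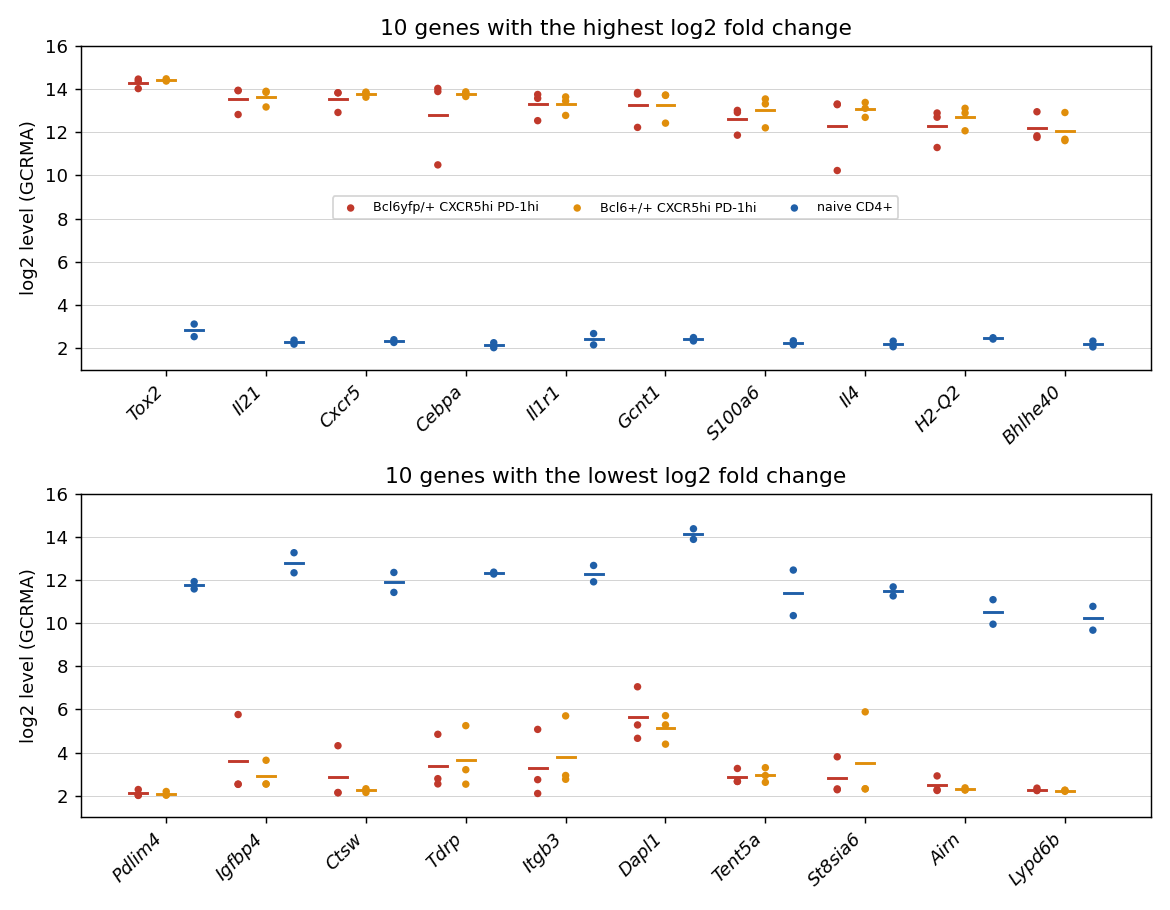
Log2 GCRMA levels (vertical axis) of the 10 genes with the highest and the 10 with the lowest fold changes in Bcl6yfp/+ and Bcl6+/+ CXCR5hi PD-1hi arrays (3 each) and naive arrays (2), with short bars at group means. The groups do not overlap for any of the 20 genes, and the naive levels of the upper 10 and most Tfh levels of the lower 10 lie near the floor of the scale.

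All 16 transcription factors tied to Tfh cells passed the filter on low values, 15 rose and 0 fell. The list's median log2 fold change was 3.75 beside 0.50 for all genes. Over all genes 28.4% rose and 5.92% fell, and list counts against naive cells here and below stand beside these shares. Maf, which drives Il4 and Il21 in Tfh cells, was at 13.68, 14.64 and 14.66 in the Tfh arrays, against 7.45 and 6.98 in the naive arrays (log2 fold change 7.14 ± 0.33 SE, adjusted p = 1.01e-10). Irf4, a factor downstream of receptor signalling, was at 11.999, 13.19 and 13.30 in the Tfh arrays, against 8.06 and 7.25 in the naive arrays (log2 fold change 5.25 ± 0.33 SE, adjusted p = 5.13e-09). Nfatc1, the inducible NFAT gene, was at 13.47, 14.53 and 14.70 in the Tfh arrays, against 10.60 and 10.79 in the naive arrays (log2 fold change 3.63 ± 0.29 SE, adjusted p = 9.07e-08). All 3 had moderate to high levels in naive cells and no overlap between the groups. Batf, the partner of IRF4 at composite DNA elements, rose by 3.87 ± 0.26 (SE) on the log2 scale, and Pou2af1, a B cell and Tfh coactivator, by 3.64 ± 0.31. Ascl2, which can start the CXCR5 programme in mice, was at 6.77, 7.60 and 7.69 in Bcl6yfp/+ cells and 8.72, 8.71 and 8.93 in Bcl6+/+ cells, against 2.38 and 2.42 in naive cells (log2 fold change 5.67 ± 1.47 SE, adjusted p = 0.00785). Its Tfh values were lower in all Bcl6yfp/+ than in all Bcl6+/+ arrays, and the YFP-sorted arrays, which enter the same estimate of error, ran over 3.64 to 11.83. Stat3 and Tox, already above 10 in naive cells, rose by 1.28 ± 0.31 and 1.91 ± 0.39. Rbpj, the DNA-binding partner of Notch, did not pass the test at 10.35, 11.32 and 11.39 in the Tfh arrays, against 10.90 and 10.65 in the naive arrays. With the set as a block 14 of the 16 were called higher, with quantile normalization 15, and without the first arrays 14.

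Among 29 cytokine and secreted-factor genes, 18 passed the filter, of which 10 rose and 0 fell (median 1.71). Il21 and Il4 led the list. Sostdc1, a secreted antagonist of BMP and Wnt signals, was at 11.26, 12.70 and 12.95 in the Tfh arrays, against 2.63 and 2.42 in the naive arrays (log2 fold change 9.79 ± 0.57 SE, adjusted p = 1.9e-09). Lif, a cytokine of the IL-6 family, was at 9.03, 11.85 and 12.62 in the Tfh arrays, against 2.41 and 2.31 in the naive arrays (log2 fold change 9.17 ± 0.86 SE, adjusted p = 5.31e-07), lowest in Bcl6yfp/+ replicate 1. Tnfsf11, the gene of RANKL, rose by 5.64 ± 0.33, Tnfsf8, the gene of CD30 ligand, by 4.68 ± 0.55, and the chemokine gene Cxcl10 by 4.55 ± 0.78 (log2 ± SE). Ifng, the Th1 cytokine, was at 2.29, 2.35 and 5.64 in the Tfh arrays, against 2.27 and 2.44 in the naive arrays, and Bcl6+/+ replicate 2 had the highest value. Il2, the T cell growth factor, was at 4.79, 5.03 and 6.83 in the Tfh arrays, against 2.33 and 4.62 in the naive arrays, and neither gene passed the test. Ltb, the lymphotoxin beta gene, was above 10 in all 8 arrays and did not pass the test.

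Receptors of costimulation and inhibition rose in 15 of the 22 that passed the filter, out of 24, and 1 fell (median 1.34). Cd160, an immunoglobulin-family receptor for HVEM, was at 11.33, 11.90 and 12.36 in the Tfh arrays, against 3.92 and 5.55 in the naive arrays (log2 fold change 7.13 ± 0.32 SE, adjusted p = 6.5e-11). Pdcd1lg2, the gene of PD-L2, a ligand of PD-1, was at 9.52, 10.28 and 10.57 in the Tfh arrays, against 3.08 and 4.09 in the naive arrays (log2 fold change 6.54 ± 0.40 SE, adjusted p = 3.99e-09). Both were low in naive cells and high in all Tfh arrays. The inhibitory receptor gene Ctla4 was at 12.34, 12.83 and 13.11 in the Tfh arrays, against 8.42 and 8.78 in the naive arrays (log2 fold change 4.20 ± 0.27 SE, adjusted p = 6.37e-09). Icos, a costimulatory receptor needed for Tfh cells, was at 13.90, 14.51 and 14.62 in the Tfh arrays, against 12.11 and 11.98 in the naive arrays (log2 fold change 2.37 ± 0.21 SE, adjusted p = 2.25e-07). Tnfrsf9 (4-1BB), Tnfrsf4 (OX40) and Cd200 rose by 3.52 ± 0.35, 3.33 ± 0.33 and 3.20 ± 0.26 on the log2 scale (± SE). Cd40lg, the B cell help signal, was at 5.66, 7.47 and 7.73 in the Tfh arrays, against 5.999 and 4.43 in the naive arrays (log2 fold change 2.02 ± 0.55 SE, adjusted p = 0.0111), and the ranges of the groups overlapped. Cd6, a receptor that restrains T cell activation, was the 1 that fell, by 0.91 (adjusted p = 0.00513). Havcr2, the gene of TIM-3, stayed at the floor in all 8 arrays. In the SLAM family, whose members join T and B cells through homotypic contacts, 6 of the 7 that passed the filter, out of 12, rose (median 1.06). The adaptor gene Sh2d1a (SAP) was at 13.24, 14.36 and 14.43 in the Tfh arrays, against 12.44 and 11.50 in the naive arrays (log2 fold change 2.09 ± 0.35 SE, adjusted p = 0.000285). Slamf1 rose by 1.86 ± 0.32 and Slamf6 by 1.61 ± 0.24. Cd48 did not pass. With quantile normalization 4 of these 7 and with the set as a block 5 of 7 were called higher.

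Genes of positioning moved in both directions: 10 rose and 8 fell of 23 that passed the filter, out of 29 (median 0.08). Beside Cxcr5, the inflammatory chemokine receptor genes Cxcr3 and Ccr6 rose. Cxcr3 was at 8.65, 10.33 and 11.36 in the Tfh arrays, against 2.23 and 4.33 in the naive arrays (log2 fold change 6.87 ± 1.21 SE, adjusted p = 0.000436). Ccr6 was at 8.24, 9.39 and 10.86 in the Tfh arrays, against 3.44 and 2.14 in the naive arrays (log2 fold change 6.72 ± 0.90 SE, adjusted p = 3.01e-05). S1pr2, which holds lymphocytes in germinal centres, was at 9.40, 9.72 and 9.94 in the Tfh arrays, against 4.94 and 6.60 in the naive arrays (log2 fold change 3.92 ± 0.46 SE, adjusted p = 6.4e-06). All 3 were low to moderate in naive cells and without overlap. The oxysterol receptor gene Gpr183 rose by 1.69 ± 0.24 and the ATP receptor gene P2rx7 by 3.60 ± 0.34. On the other side stood genes of recirculation. Ccr7, which leads cells into the T cell zone, was at 8.55, 9.52 and 10.47 in the Tfh arrays, against 13.93 and 12.94 in the naive arrays (log2 fold change -3.93 ± 1.11 SE, adjusted p = 0.0134). S1pr1, the egress receptor, was at 6.98, 8.07 and 8.30 in the Tfh arrays, against 11.13 and 9.88 in the naive arrays (log2 fold change -2.73 ± 0.57 SE, adjusted p = 0.00184). Its activator Klf2 was at 8.43, 8.65 and 9.40 in the Tfh arrays, against 12.02 and 11.55 in the naive arrays (log2 fold change -3.03 ± 0.53 SE, adjusted p = 0.000399). These 3 fell without reaching the floor. Itga4, the integrin alpha-4 subunit, was at 8.11, 8.84 and 10.44 in the Tfh arrays, against 14.01 and 13.32 in the naive arrays (log2 fold change -4.57 ± 0.37 SE, adjusted p = 9.96e-08). Ccr9, the gut-homing receptor, was at the floor in all Tfh arrays, at 2.25, 2.31 and 2.35 in the Tfh arrays, against 7.08 and 5.83 in the naive arrays (log2 fold change -4.15 ± 0.52 SE, adjusted p = 1.44e-05). Selplg (PSGL-1) fell by 1.16 and S1pr4 by 0.93 on the log2 scale.

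Of 31 genes of the naive state and quiescence, 29 passed the filter, 11 fell and 5 rose (median -0.36, and 3 higher with the replicate number as a block). Those that fell included Ccr7, S1pr1, Klf2, Igfbp4 and Dapl1, described above. Il7r, the IL-7 receptor alpha chain, was at 9.91, 9.05 and 9.46 in Bcl6yfp/+ cells and 10.99, 10.08 and 7.11 in Bcl6+/+ cells, against 14.51 and 14.21 in naive cells (log2 fold change -4.92 ± 0.77 SE, adjusted p = 0.000153). Bcl2, the survival protein gene, was at 10.05, 10.55 and 10.84 in the Tfh arrays, against 13.06 and 12.76 in the naive arrays (log2 fold change -2.44 ± 0.29 SE, adjusted p = 8.57e-06). Bach2, a repressor that keeps T cells from effector fates, was at 8.70, 9.21 and 9.79 in the Tfh arrays, against 12.77 and 12.19 in the naive arrays (log2 fold change -3.29 ± 0.53 SE, adjusted p = 0.0002). All 6 Tfh arrays lay below both naive arrays for these 3 genes. Rasgrp2 and Pik3ip1, which act on Rap1 and on PI3K, fell by 3.999 and 2.34 on the log2 scale. Klf4 went the other way, at 8.86, 9.38 and 10.57 in the Tfh arrays, against 3.87 and 6.90 in the naive arrays (log2 fold change 4.17 ± 0.82 SE, adjusted p = 0.00111), and lost its call with the replicate number as a block (adjusted p = 0.0712), without naive replicate 1 (adjusted p = 0.0624) and with the mean of probe sets (adjusted p = 0.136). Several textbook naive genes had high levels in Tfh cells and did not pass the test. The transcription factor gene Lef1 was at 13.06, 13.74 and 13.80 in the Tfh arrays, against 13.998 and 14.03 in the naive arrays. The chromatin organizer gene Satb1 was at 13.22, 13.92 and 14.05 in the Tfh arrays, against 13.93 and 13.75 in the naive arrays, and the forkhead gene Foxp1 was between 12.41 and 13.31 in Tfh arrays, against 12.99 and 13.21 in naive arrays. Under quantile normalization 20 of the 29 were called lower and 2 higher, and with the set as a block 16 lower and 3 higher.

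Of 27 Th1 and cytotoxic genes, 23 passed the filter, 6 of them while below 4 in all 8 Tfh and naive arrays. Of the 23, 5 rose and 3 fell (median -0.04), beside 28.4% higher and 5.92% lower over all genes. Tbx21, the gene of T-bet, was at 2.14, 2.16 and 3.08 in the Tfh arrays, against 2.13 and 2.25 in the naive arrays. The cytotoxic granule genes Nkg7 and Gzmb were no higher than 2.26 and 2.17 in any of the 8 arrays. Gzma, another granzyme gene, was high in Tfh cells, at 9.71, 9.98 and 11.43 in the Tfh arrays, against 4.001 and 2.30 in the naive arrays (log2 fold change 7.09 ± 0.92 SE, adjusted p = 2.18e-05). Klrd1, the CD94 chain of NK receptors, was at 2.20, 2.26 and 4.95 in the Tfh arrays, against 11.45 and 9.81 in the naive arrays (log2 fold change -7.88 ± 0.59 SE, adjusted p = 4.04e-08), on the naive side like Ctsw. Prdm1, the gene of BLIMP-1, which opposes BCL6, was at 2.11, 2.17 and 4.36 in the Tfh arrays, against 7.75 and 4.32 in the naive arrays (log2 fold change -3.38 ± 0.87 SE, adjusted p = 0.0076). The Prdm1 call was lost without naive replicate 1 (adjusted p = 0.226), with the replicate number as a block (adjusted p = 0.252) and with the set as a block (adjusted p = 0.826).

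Of 16 genes associated with regulatory T cells, 14 passed the filter, 8 rose and 3 fell (median 1.63). The 3 that fell included the defining factor. Foxp3 was at 2.91, 3.32 and 5.88 in the Tfh arrays, against 5.38 and 8.17 in the naive arrays (log2 fold change -2.81 ± 0.87 SE, adjusted p = 0.0215), with 1 Tfh array above the lower naive array. Il2ra, the gene of CD25, was at 2.14, 2.16 and 2.63 in the Tfh arrays, against 5.78 and 6.18 in the naive arrays (log2 fold change -3.71 ± 0.64 SE, adjusted p = 0.000383). Ikzf4, the gene of Eos, was at 2.44, 2.49 and 4.95 in the Tfh arrays, against 7.90 and 6.96 in the naive arrays (log2 fold change -4.52 ± 0.49 SE, adjusted p = 3.25e-06). The 8 that rose were Il1r2, Ikzf2, Nrp1, Ctla4, Tnfrsf9, Izumo1r, Nt5e and Tnfrsf18, several of which activated T cells also carry. Il1r2, a decoy receptor for IL-1, was at 8.77, 8.96 and 9.70 in the Tfh arrays, against 2.10 and 2.21 in the naive arrays (log2 fold change 6.97 ± 1.41 SE, adjusted p = 0.00143). Ikzf2, the gene of Helios, was at 12.59, 13.52 and 13.60 in the Tfh arrays, against 8.26 and 8.33 in the naive arrays (log2 fold change 4.96 ± 0.28 SE, adjusted p = 1.29e-09). The semaphorin receptor gene Nrp1 was at 11.62, 12.66 and 12.93 in the Tfh arrays, against 7.30 and 7.997 in the naive arrays (log2 fold change 4.81 ± 0.32 SE, adjusted p = 8.62e-09). Izumo1r, the folate receptor family gene of FR4, rose by 2.58 ± 0.30.

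Genes of the T cell receptor response rose in 17 of 31 that passed the filter, out of 33, and 2 fell (median 1.72). Egr2, a zinc finger factor induced by receptor signals, was at 13.18, 14.15 and 14.27 in the Tfh arrays, against 11.14 and 11.25 in the naive arrays (log2 fold change 2.74 ± 0.27 SE, adjusted p = 7.76e-07). Nr4a1, the gene of NUR77, was at 10.75, 10.93 and 12.07 in the Tfh arrays, against 9.01 and 8.49 in the naive arrays (log2 fold change 2.47 ± 0.52 SE, adjusted p = 0.00176). Rnf128, the E3 ligase GRAIL of T cell unresponsiveness, was at 6.18, 8.94 and 9.66 in the Tfh arrays, against 2.50 and 2.55 in the naive arrays (log2 fold change 6.12 ± 0.63 SE, adjusted p = 1.58e-06). Unlike Egr2 and Nr4a1, Rnf128 was at the floor in naive cells. The AP-1 gene Jun was at 11.85, 12.05 and 12.85 in the Tfh arrays, against 7.05 and 10.37 in the naive arrays (log2 fold change 3.43 ± 0.55 SE, adjusted p = 0.000194), with its highest value in Bcl6+/+ replicate 1. Myc, the growth regulator, fell, at 6.92, 7.18 and 8.82 in the Tfh arrays, against 9.57 and 9.93 in the naive arrays (log2 fold change -2.25 ± 0.54 SE, adjusted p = 0.00465). Ndrg1, a gene induced in unresponsive T cells, also fell, at 2.30, 2.99 and 6.47 in the Tfh arrays, against 9.38 and 8.74 in the naive arrays (log2 fold change -5.56 ± 0.77 SE, adjusted p = 4.43e-05). Fosb, Nr4a2, Dusp4 and Spry1, high in the first array of each genotype alone, did not pass. Without those 2 arrays the list had 19 genes higher and 3 lower. Genes of T cell identity, by contrast, lay near the median of all genes: 5 of 17 that passed the filter, out of 20, rose and 0 fell (median 0.55). The replicate number as a block left 3, and without the first arrays 14 were higher. Cd3e was at 14.01, 14.50 and 14.55 in the Tfh arrays, against 13.91 and 14.01 in the naive arrays and did not pass. Zap70 had the largest change of the list, at 1.68 ± 0.27 (log2 ± SE), and its call was lost with the set as a block, at 0.40 (adjusted p = 0.114), and with arrays of 1 extraction text (adjusted p = 0.164). Lcp2 and Gata3 rose by 0.91 and 1.37, and Plcg1, at 0.72, turned to -0.31 with the mean of its probe sets (adjusted p = 0.494). Gata3 missed the threshold with the replicate number as a block (adjusted p = 0.0561), and so did Plcg1 (adjusted p = 0.0564).

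**Figure D3:**
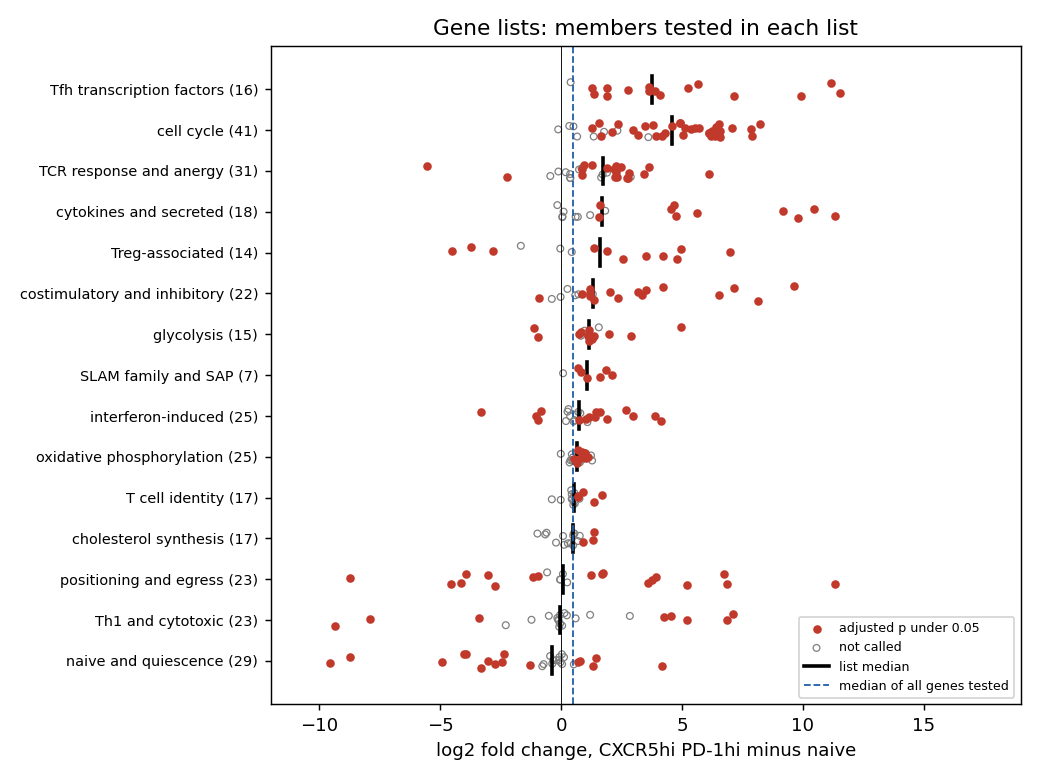
Log2 fold change of CXCR5hi PD-1hi over naive cells (horizontal axis) for the members of 15 gene lists that passed the filter on low values, their number in brackets. Filled points were called at a limma adjusted p under 0.05, black bars are list medians and the dashed line is the median of all genes, 0.50. Tfh transcription factors and cell cycle genes have the medians furthest above it, 3.75 and 4.57, and naive and quiescence genes the lowest, -0.36.

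The largest list median was that of proliferation genes. Of 43 cell cycle genes 41 passed the filter, 33 rose and 0 fell, with a median of 4.57. Mki67, the proliferation antigen Ki-67, was at 11.76, 11.89 and 12.73 in the Tfh arrays, against 3.49 and 4.79 in the naive arrays (log2 fold change 7.91 ± 0.74 SE, adjusted p = 5.3e-07). Nusap1, a spindle protein, was at 10.40, 10.59 and 11.11 in the Tfh arrays, against 2.62 and 2.40 in the naive arrays (log2 fold change 8.21 ± 1.13 SE, adjusted p = 3.94e-05). Tk1, thymidine kinase, was at 10.05, 10.26 and 10.34 in the Tfh arrays, against 2.16 and 2.53 in the naive arrays (log2 fold change 7.87 ± 1.27 SE, adjusted p = 0.000201). For these genes the 6 Tfh arrays lay close together and far above both naive arrays. The spindle assembly factor gene Tpx2 was at 9.02, 10.20 and 10.58 in the Tfh arrays, against 2.27 and 3.77 in the naive arrays (log2 fold change 7.05 ± 1.20 SE, adjusted p = 0.000343). Genes of DNA replication that naive cells already carried moved less. The helicase subunit gene Mcm6 was at 12.76, 13.45 and 13.63 in the Tfh arrays, against 11.24 and 11.31 in the naive arrays (log2 fold change 2.09 ± 0.39 SE, adjusted p = 0.000726). The sliding clamp gene Pcna was at 13.86, 14.07 and 14.12 in the Tfh arrays, against 13.44 and 13.32 in the naive arrays and did not pass the test. The set as a block gave 12 calls in place of 33 at a median of 4.22, and the Tpx2 call was among those lost (adjusted p = 0.131). In bulk samples a larger share of dividing cells and more transcript per dividing cell cannot be told apart.

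Of 15 glycolysis genes that passed the filter, out of 18, 10 rose and 2 fell (median 1.14), with the replicate number as a block 6 rose and 0 fell, and with the set as a block 4 rose and 2 fell. Hk2, a hexokinase of proliferating cells, was at 5.48, 7.81 and 8.80 in the Tfh arrays, against 2.70 and 2.71 in the naive arrays (log2 fold change 4.96 ± 0.70 SE, adjusted p = 4.97e-05). The isomerase gene Tpi1 was at 12.02, 12.76 and 12.96 in the Tfh arrays, against 9.87 and 9.53 in the naive arrays (log2 fold change 2.90 ± 0.34 SE, adjusted p = 6.33e-06). The mutase gene Pgam1 was at 12.62, 13.79 and 13.82 in the Tfh arrays, against 11.80 and 11.40 in the naive arrays (log2 fold change 1.97 ± 0.32 SE, adjusted p = 0.000238). Hk2 was at the floor in naive cells and the other 2 were not. Hk2 lost its call with the set as a block (adjusted p = 0.154). The glucose transporter gene Slc2a3 fell by 1.11 and the kinase gene Pdk1, which restrains pyruvate oxidation, by 0.96 on the log2 scale. Oxidative phosphorylation genes, 25 passing of 27, had 9 higher and 0 lower at a median of 0.68, close to the shift itself, and quantile normalization left 2 higher and 1 lower at a median of 0.11, the replicate number as a block 5 higher. Without the first arrays 22 were higher. Cholesterol synthesis genes, 17 passing of 20, had 3 higher at a median of 0.50, with a median of -0.08 under quantile normalization, and 6 higher without the first arrays.

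Smaller lists around the 2 naive-side markers were mixed. Among 13 cathepsins and cystatins that passed the filter, out of 16, 5 rose and Ctsw was the 1 that fell. Shares of this order are near those of all genes, 28.4% higher and 5.92% lower, and the same holds for the PDZ and LIM domain genes and the apoptosis genes that follow. Cst7, cystatin F, which inhibits lysosomal cathepsins, was at 11.03, 12.30 and 12.41 in the Tfh arrays, against 8.26 and 7.52 in the naive arrays (log2 fold change 4.16 ± 0.46 SE, adjusted p = 3.35e-06), and Ctsb rose by 1.95 ± 0.27. Among 16 PDZ and LIM domain genes that passed, out of 22, 6 rose and Pdlim4 was the 1 that fell, against 4 lower with quantile normalization. Pdlim7, a relative of Pdlim4, was at 9.03, 10.56 and 10.89 in the Tfh arrays, against 4.13 and 5.14 in the naive arrays (log2 fold change 5.75 ± 0.36 SE, adjusted p = 4.23e-09), opposite in direction to Pdlim4, and the LIM-only factor gene Lmo4 rose by 3.29 ± 0.53. Of 16 S100, annexin and galectin genes that passed, out of 19, 7 rose and 0 fell, beside 28.4% higher and 5.92% lower over all genes, and the set as a block gave 4 higher and 1 lower. S100a4, a marker of experienced T cells, was at 9.97, 11.37 and 13.09 in the Tfh arrays, against 2.15 and 2.32 in the naive arrays (log2 fold change 9.22 ± 0.52 SE, adjusted p = 1.24e-09). The annexin gene Anxa2 was at 10.12, 10.69 and 11.78 in the Tfh arrays, against 7.16 and 6.36 in the naive arrays (log2 fold change 4.07 ± 0.55 SE, adjusted p = 3.28e-05). Interferon-induced genes had 11 higher and 4 lower of 25 that passed, out of 31, with 1 lower when the replicate number was a block. Mx1 and Oas1a, antiviral effectors, rose by 4.13 ± 0.41 and 3.87 ± 0.29, whereas Oas2 was called lower, at 3.57, 3.58 and 7.11 in the Tfh arrays, against 7.92 and 8.08 in the naive arrays (log2 fold change -3.33 ± 1.06 SE, adjusted p = 0.0242). Its 2 highest Tfh values were those of the first arrays, and its call was lost without either naive array (adjusted p = 0.108 without replicate 1 and 0.139 without replicate 2) and with the set as a block (adjusted p = 0.526). Of 19 apoptosis genes that passed, out of 24, 7 rose and 1, Bcl2, fell, against 5 lower with quantile normalization. The inflammatory caspase genes Casp4 and Casp1 led. Casp4 was at 12.01, 12.86 and 13.35 in the Tfh arrays, against 7.07 and 4.96 in the naive arrays (log2 fold change 6.85 ± 0.42 SE, adjusted p = 3.53e-09). Casp1 was at 12.53, 13.08 and 13.45 in the Tfh arrays, against 8.37 and 6.91 in the naive arrays (log2 fold change 5.46 ± 0.30 SE, adjusted p = 1.24e-09). Pmaip1, the gene of NOXA, rose by 4.35 ± 0.55 and Fas by 1.41 ± 0.26.

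Of 21 B cell markers 4 passed the filter, 3 of them at a mean level of 8 or more in Tfh cells, and 13 of the rest with probe sets were no higher than 3.89 in any Tfh array and 3.36 in any naive array. Cd79b, part of the B cell receptor, was at 2.19 to 2.33 in Tfh arrays, against 2.23 and 2.33 in naive arrays. Cd22, an inhibitory sialic acid receptor known from B cells, was at 8.89, 10.36 and 10.60 in Bcl6yfp/+ cells and 11.19, 10.66 and 11.47 in Bcl6+/+ cells, against 2.20 and 2.22 in naive cells (log2 fold change 8.32 ± 0.63 SE, adjusted p = 4.52e-08). Cd74, the invariant chain, rose by 2.997 ± 0.71, and its call was lost with the set as a block (adjusted p = 0.123) and without naive replicate 2 (adjusted p = 0.0545). Ighm was called lower at -0.75, but the mean of its probe sets gave 1.75 (adjusted p = 0.538), so its probe sets disagreed. Of 13 germinal centre B and plasma cell markers 6 passed, with Irf4, Xbp1 and Fas higher and Prdm1 lower, and T cells express these too. The joining chain gene Jchain was at 7.54, 3.25 and 2.19 in Bcl6yfp/+, 3.38, 4.01 and 2.25 in Bcl6+/+ and 2.21 and 5.56 in naive arrays. Of 22 myeloid markers 7 passed, 0 rose, and the 1 called lower, Fcgr3, was at 2.23, 2.41 and 5.10 in the Tfh arrays, against 4.92 and 4.04 in the naive arrays, near the floor. Of 10 CD8 and NK cell markers 4 passed, with Gzma higher and Klrd1 lower, both described above. No erythroid marker passed, and of the stromal markers only Pecam1 did. Among the 4 B cell markers tested, Cd79b was thus at the floor in Tfh cells, while Cd22, Cd74 and Ighm were the 3 at a mean of 8 or more. Ighm reached 12.61 in Bcl6+/+ replicate 1. The part of B cells in these levels was not tested.

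A pair of arrays from 1 normalization set, Bcl6yfp/+ replicate 1 and naive replicate 2, gave a comparison without a difference in set, extraction text or sex-linked transcripts. With 1 array on each side there is no test, and genes are counted from a difference of 1 log2 unit. The fit with the set as a block took its link between Tfh and naive cells from this same pair. It is therefore not a separate check. The median difference was 0.00, against 0.51 for the mean of the other 5 Tfh arrays minus naive replicate 1, a comparison that shares no array with the pair. In the pair 1137 genes were higher and 901 lower by at least 1 unit, 11.5% and 9.07% of the genes. In the other arrays the counts were 2700 higher and 1016 lower, 27.2% and 10.2%. Of the pair's higher genes 995 (87.5%) were also at least 1 unit higher in the other arrays, which is 36.9% of theirs, and 12 were at least 1 unit lower. Of the pair's lower genes 538 (59.7%) were also at least 1 unit lower, which is 53.0% of theirs, and 8 were at least 1 unit higher. The sign alone was shared by 96.8% of the higher genes, where 73.3% of all genes were positive in the other arrays, and by 91.0% of the lower ones, where 26.7% of all genes were negative.

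The 5 highest genes of the pair were Tox2, Bhlhe40, Il21, Cxcr5 and Il1r1, and the 5 lowest Pdlim4, St8sia6, Tdrp, Myo6 and Amigo2. Tox2 differed by 10.91 in the pair and by 11.89 in the other arrays, and Il21 by 10.64 and 11.39. Bhlhe40, higher in the first arrays, differed by 10.89 in the pair and 9.63 elsewhere. Pdlim4 differed by -9.29 and -9.86, and the motor protein gene Myo6 by -7.34 and -8.22. Cebpa and Il4 had smaller differences in the pair. They were 8.24 in the pair and 11.83 in the other arrays for Cebpa, and 7.91 and 11.09 for Il4. Sex-linked genes behaved otherwise: Eif2s3y differed by 0.09 in the pair and 11.51 in the other arrays, and Xist by 0.00 and -11.40. None of the sex-linked genes was called between Tfh and naive cells.

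**Figure D4:**
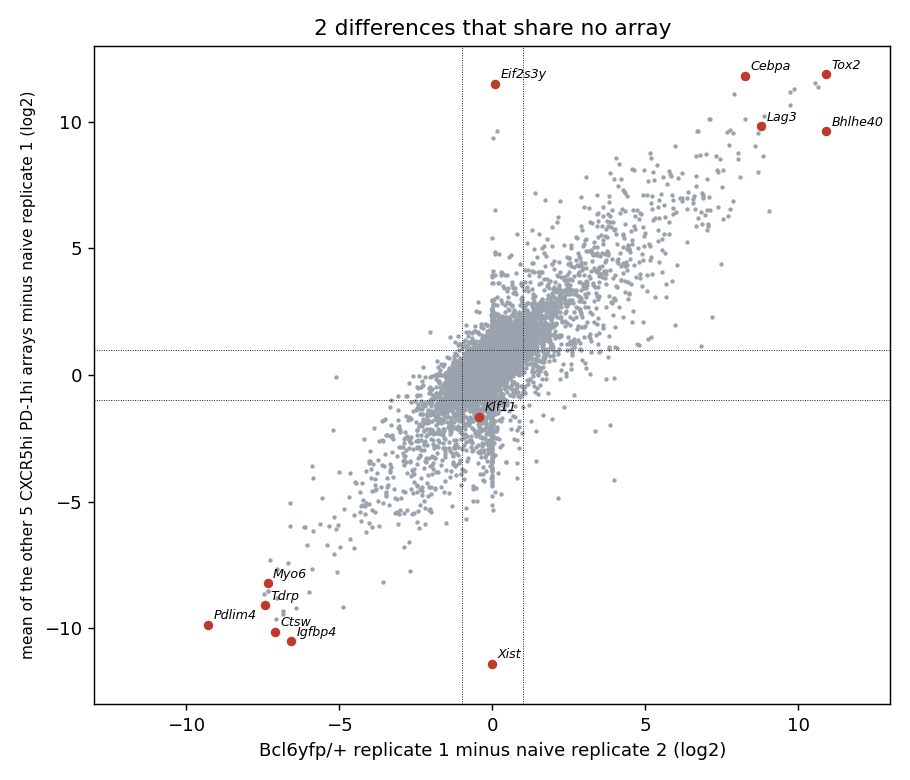
Each point is 1 of 9930 genes, with the difference of Bcl6yfp/+ replicate 1 minus naive replicate 2 on the horizontal axis and of the mean of the other 5 CXCR5hi PD-1hi arrays minus naive replicate 1 on the vertical axis, both in log2 units. Dotted lines mark 1 log2 unit; Tox2 and Pdlim4 lie at the corners of the diagonal, and Eif2s3y and Xist lie near 0 on the horizontal axis alone.

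The 2 genotypes were also set against naive cells one by one, sharing both naive arrays. Bcl6yfp/+ cells differed in 2036 genes, 20.5% of those tested. Of them 1534 (15.4%) were higher and 502 (5.06%) lower, against 1455 and 1087 with quantile normalization. Bcl6+/+ cells differed in 3566 genes (35.9%), 3124 (31.5%) higher and 442 (4.45%) lower, against 1743 and 1097 with quantile normalization. Without its first array the Bcl6yfp/+ count was 4454. It was 1266 and 1331 without replicates 2 and 3, and 1185 and 1264 without naive replicates 1 and 2. The Bcl6+/+ count was 2159 and 1783 without naive replicates 1 and 2. Il21 rose by 11.29 ± 0.54 in Bcl6yfp/+ and 11.36 ± 0.54 in Bcl6+/+ cells, Tox2 by 11.46 ± 0.35 and 11.60 ± 0.35, and Cebpa by 10.67 ± 0.93 and 11.65 ± 0.93 (log2 ± SE, Bcl6yfp/+ before Bcl6+/+). Pdlim4 changed by -9.64 ± 0.48 and -9.66 ± 0.48 in the same order.

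Between the genotypes themselves 0 genes passed in limma (0% of genes), and 287 had an unadjusted p under 0.05. The median difference of all genes was -0.26 on the log2 scale, Bcl6yfp/+ minus Bcl6+/+, and near 0 without Bcl6yfp/+ replicate 1. Bcl6 itself differed by -0.20 ± 0.24 (adjusted p = 0.869), Cxcr5 by -0.25 ± 0.30, Pdcd1 by -0.11 ± 0.32 and Il21 by -0.08 ± 0.48 (log2 ± SE). Il4 differed by -0.79 ± 0.56, Cebpa by -0.98 ± 0.84 and Ascl2 by -1.43 ± 1.47, and over the members of all gene lists the differences ran from -2.03 to 1.11. A p above the threshold does not show that the genotypes are alike. Day was not balanced, since 2 of the 3 Bcl6+/+ arrays and 0 of the 3 Bcl6yfp/+ arrays were from day 10.

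Set beside the CXCR5lo PD-1lo cells of immunized mice, Tfh cells differed in 1149 genes, 11.6% of those tested, of which 557 (5.61%) were higher and 592 (5.96%) lower. The split again moved with the setting. Quantile normalization gave 1820 higher and 776 lower, and centring on array medians 577 higher and 383 lower. The set as a block gave 148 higher and 245 lower. Without the first arrays of the genotypes 2496 genes were called, and without Bcl6yfp/+ replicate 1 alone 1971. Without CXCR5lo replicate 2 or 3 the count was 724 or 728. No set and no extraction text was shared by the 2 groups, and the CXCR5lo arrays carried Xist and no Y-linked transcripts. With the set as a block the contrast therefore ran through the 2 naive arrays and carried the difference between them. Eif2s3y, Kdm5d and Xist were among the largest changes (11.28, 9.28 and -11.25), and group, set, extraction text and sex-linked transcripts cannot be told apart for any gene here. Il4 was at 10.23 to 13.38 in Tfh cells, against 4.23, 4.34 and 3.51 in CXCR5lo cells (log2 fold change 8.64 ± 0.49 SE, adjusted p = 3.06e-09). Sostdc1 was at 11.26 to 12.95 in Tfh cells, against 3.74, 3.04 and 3.02 in CXCR5lo cells (log2 fold change 9.05 ± 0.49 SE, adjusted p = 2.21e-09). Both were near the naive level in CXCR5lo cells, while Tox2 was not, at 13.23, 12.29 and 11.61, and Il21 lay between at 10.85, 9.35 and 8.28. H2-Q2, in which family members cannot be told apart, also belonged to the 5 highest.

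Of the 29 naive and quiescence genes 0 were higher and 9 lower in Tfh cells than in CXCR5lo cells. All 9 were also called lower than in naive cells. Against CXCR5lo cells 5.61% of all genes were higher and 5.96% lower. Ctsw, which is not in the naive and quiescence list, was at 2.14 to 4.32 in Tfh cells, against 9.85, 11.11 and 11.03 in CXCR5lo cells (log2 fold change -8.10 ± 0.55 SE, adjusted p = 3.41e-08). Dapl1 was at 4.39 to 7.05 in Tfh cells, against 12.73, 13.56 and 13.60 in CXCR5lo cells. Il7r was at 7.11 to 10.99 in Tfh cells, against 13.98, 14.29 and 13.63 in CXCR5lo cells. Pdlim4 differed from these in lying nearer the floor in CXCR5lo cells, at 3.71, 6.03 and 6.20. Of the 23 Th1 and cytotoxic genes 16 were lower in Tfh cells and 0 higher. For 6 of the 16 the 8 Tfh and naive arrays were all below 4 and CXCR5lo cells were above, so that these genes had to differ once they passed the filter, and the count is given as a description alone. Nkg7, a cytotoxic granule protein, was at 2.02 to 2.26 in Tfh cells, against 11.09, 11.31 and 10.44 in CXCR5lo cells (log2 fold change -8.86 ± 0.19 SE, adjusted p = 1.13e-14). In CXCR5lo cells these genes were thus well above the floor that they had in the other arrays. Gzmb was at 2.02 to 2.17 in Tfh cells, against 10.26, 11.03 and 9.57 in CXCR5lo cells, and Tbx21 at 2.14 to 3.08, against 9.72, 8.39 and 7.01 in CXCR5lo cells. The genes with the lowest values by the naming rule further included Ifitm1, an interferon-induced membrane protein, at 2.22 to 2.56 in Tfh cells, against 12.42, 11.89 and 10.02 in CXCR5lo cells, Ccr2, a receptor for inflammatory chemokines (-8.65), and Ctla2a, a cathepsin inhibitor (-8.52). The B cell marker gene Cd79b was at 5.26, 5.30 and 5.36 in CXCR5lo cells and at the floor in Tfh cells, and the part of other cells in these differences was not tested. Of the 41 cell cycle genes only Mcm6 was called, higher in Tfh cells (log2 fold change 1.12 ± 0.34 SE, adjusted p = 0.0417). The list median was 0.94 beside 0.06 for all genes, but the CXCR5lo arrays were spread widely. Their mean levels of the list were 10.87, 8.45 and 7.60, against 9.60 to 10.50 in Tfh arrays, so CXCR5lo replicate 1 lay above all Tfh arrays.

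Of the 16 Tfh transcription factors 8 were higher in Tfh cells than in CXCR5lo cells and 0 lower, at a list median of 0.93. Over all genes 5.61% were higher and 5.96% lower. Ascl2 was at 6.77 to 8.93 in Tfh cells, against 2.32, 2.31 and 2.35 in CXCR5lo cells (log2 fold change 5.74 ± 1.27 SE, adjusted p = 0.00636). Cebpa was at 10.49 to 14.03 in Tfh cells, against 9.31, 5.29 and 7.20 in CXCR5lo cells (log2 fold change 6.03 ± 0.72 SE, adjusted p = 2.79e-05). Bcl6 was higher by 1.56 ± 0.21 and Maf, at 13.68 to 14.66 in Tfh cells, against 13.81, 14.02 and 13.06 in CXCR5lo cells, was not called. Ascl2 was near the floor in CXCR5lo cells, as in naive cells, and among Ascl2, Cebpa and Maf the Tfh and CXCR5lo arrays overlapped for Maf alone. Of 22 receptors of costimulation and inhibition 8 were higher and 2 lower, beside 5.61% and 5.96% of all genes. Cd160 was higher by 5.13 ± 0.28 and Lag3 by 1.69 ± 0.24, while Havcr2 was at 2.15 to 2.24 in Tfh cells, against 8.20, 6.80 and 4.18 in CXCR5lo cells (log2 fold change -4.22 ± 0.52 SE, adjusted p = 4.03e-05).

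Of 23 positioning genes 5 were higher and 14 lower in Tfh cells (median -1.19), beside 5.61% higher and 5.96% lower over all genes. Itgae, the integrin chain CD103, was at 2.26 to 3.46 in Tfh cells, against 8.06, 10.42 and 9.36 in CXCR5lo cells (log2 fold change -6.74 ± 0.38 SE, adjusted p = 2.89e-09). Itgb3 was at 2.11 to 5.71 in Tfh cells, against 10.30, 11.31 and 11.11 in CXCR5lo cells, and at 12.67 and 11.91 in naive cells, so that both naive arrays were above all CXCR5lo arrays. S1pr2 was higher in Tfh cells, by 2.28 ± 0.40 (log2 ± SE). Of 16 S100, annexin and galectin genes 0 were higher and 7 lower, beside the same shares of all genes. Anxa1, a regulator of inflammation, was at 2.18 to 2.26 in Tfh cells, against 11.85, 9.53 and 7.67 in CXCR5lo cells (log2 fold change -7.47 ± 0.66 SE, adjusted p = 8.14e-07), and Lgals3, the gene of galectin-3, had a log2 fold change of -6.84 ± 1.07 SE. S100a4 and Anxa2, raised in Tfh cells over naive cells, were lower than in CXCR5lo cells by 2.09 and 2.10. Havcr2, Itgae and Anxa1 were below 4 in all Tfh and naive arrays, so that their direction too followed once they passed the filter. Marker lists of other cells moved with this comparison. The mean level of the 4 CD8 and NK cell markers tested was 5.14 to 6.09 in Tfh arrays, against 8.40 to 9.67 in CXCR5lo arrays, and that of the 7 myeloid markers 4.27 to 5.39, against 5.45 to 6.90. Their part in these differences was not tested.

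**Figure D5:**
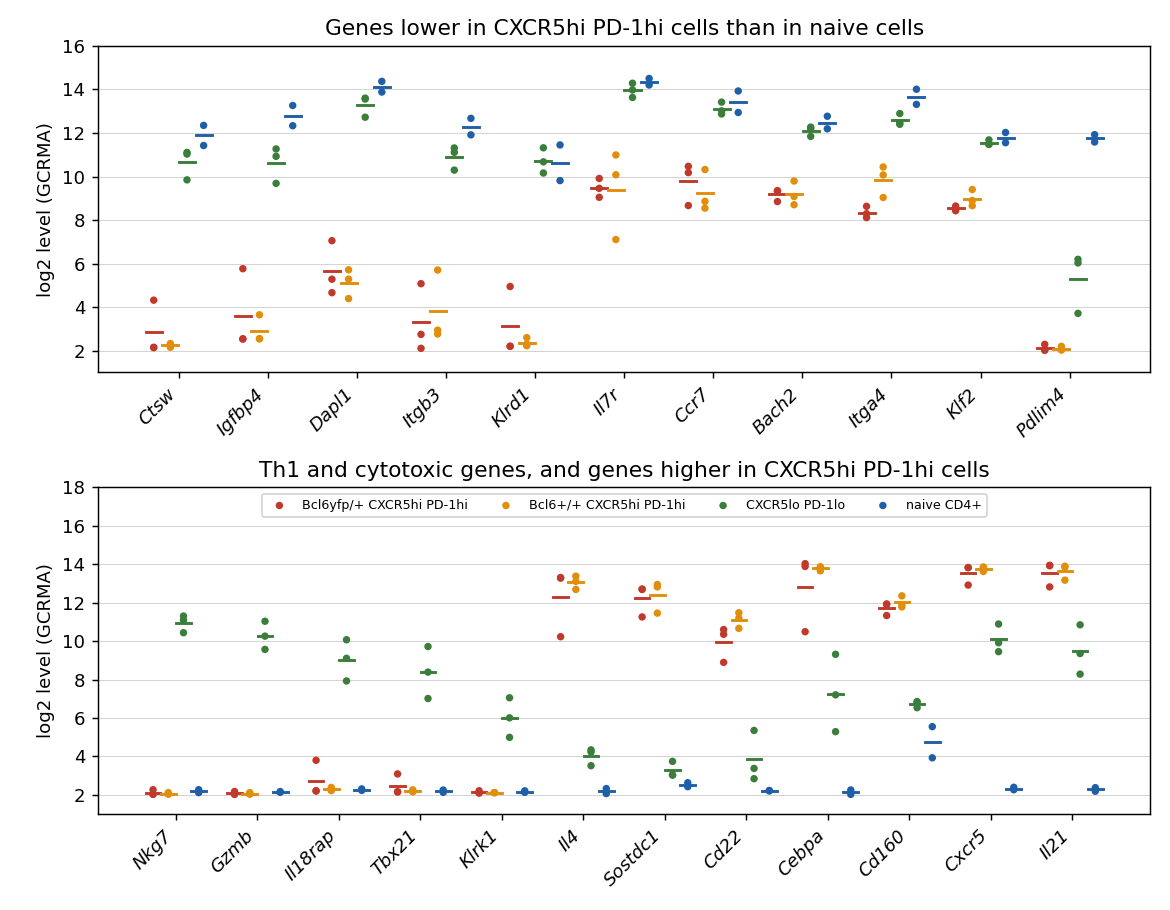
Log2 GCRMA levels (vertical axis) in Bcl6yfp/+ and Bcl6+/+ CXCR5hi PD-1hi arrays (3 each), CXCR5lo PD-1lo arrays (3) and naive arrays (2), with short bars at group means. In the upper panel CXCR5lo cells lie near naive cells for most genes and low for Pdlim4, and in the lower panel Nkg7, Gzmb, Il18rap, Tbx21 and Klrk1 are near the floor except in CXCR5lo cells, while Il4 and Sostdc1 are high in CXCR5hi PD-1hi cells alone.

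Finally, the 6 arrays sorted without YFP were set against the 8 CXCR5hi PD-1hi arrays sorted on YFP, a comparison within Tfh cells that shares no set. Of the genes tested 531 (5.35%) were called, 274 (2.76%) higher and 257 (2.59%) lower in the arrays sorted without YFP. With the set as a random block 22 were called, 7 higher and 15 lower, while quantile normalization gave 1777 higher and 413 lower and centring on array medians 381 higher and 184 lower. Leaving out 1 library moved the count to between 259, without Bcl6yfp/+ replicate 2, and 2278, without Bcl6yfp/+ replicate 1. The count was lower by over 1.5 times also without Bcl6yfp/+ replicate 3 (264), Bcl6+/+ replicate 3 (311), YFP-positive replicate 3 (337), YFP-negative replicate 3 (348) or YFP-negative replicate 4 (343). Genes of the Tfh programme overlapped in level. Cxcr5 was at 12.92 to 13.86 without YFP, against 13.66 to 14.05 in YFP-sorted arrays, and Il21 at 12.82 to 13.95 without YFP, against 12.95 to 13.90. Bcl6 was at 13.66 to 14.45 without YFP, against 13.70 to 14.62 in YFP-sorted arrays. Of the 16 Tfh transcription factors Rbpj was the 1 called, higher by 0.86 ± 0.21 (log2 ± SE). Among the 29 naive and quiescence genes Klf2, Foxp1 and Tob1 were called higher. Klf2 was at 8.43 to 9.40 without YFP, against 3.45 to 9.23 in YFP-sorted arrays (log2 fold change 2.04 ± 0.35 SE, adjusted p = 0.00273). The 5 lowest genes by the naming rule were Lin52, Hpgds, Plbd1, Fmnl2 and Slc18a2. Lin52, a subunit of the DREAM complex, was at 2.65 to 4.08 without YFP, against 6.66 to 8.19 in YFP-sorted arrays (log2 fold change -4.71 ± 0.51 SE, adjusted p = 6.39e-05), and the naive arrays split the same way, at 3.82 in replicate 2 and 7.70 in replicate 1. Slc18a2, a vesicular monoamine transporter gene, was at 2.39 to 3.08 without YFP, against 6.53 to 7.81 in YFP-sorted arrays, and at 3.08 and 6.27 in naive replicates 2 and 1. The 5 highest, Wipi1, Trim3, Zc3h3, Iigp1 and Adap1, changed by 1.84 to 2.53 on the log2 scale, and with the set as a block none of the 10 kept its call. Iigp1, an interferon-inducible GTPase, was at 9.02 to 10.03 without YFP, against 6.69 to 8.90 in YFP-sorted arrays. Of 25 interferon-induced genes 9 were called higher and 0 lower (median 0.68 beside 0.12 for all genes), where 2.76% of all genes were higher. The random block left 7 higher calls over all genes, so not all 9 held, and Iigp1 lost its call there (adjusted p = 0.143). Sex-linked transcripts differed too, with a mean level of 8.16 to 9.10 in the 6 arrays without YFP, against 5.06 to 5.17 in 5 and 8.41 to 8.71 in 3 of the YFP-sorted arrays. YFP-negative replicate 1 had the highest mean levels of the myeloid markers, 7.64, and of the germinal centre B and plasma cell markers, 9.82, among the 14 arrays, and the part of other cells was not tested. The sort, the set and the extraction text cannot be told apart in this comparison. With the set as a block this contrast too ran through the 2 naive arrays.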

How the data were processed

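The authors deposited log2 expression values of 19 Affymetrix mouse arrays, made with GCRMA per the submitters' processing notes. By the mean difference of their sorted values the arrays fell into 7 sets, with 0.0482 the largest difference inside a set and 0.0666 the smallest across sets; whether each set was normalized separately is not given in the sources used here. Of 45101 probe sets, 34945 carried 1 gene symbol. Probe sets at level 4 on at least 2 arrays were kept, and the one with the highest mean stood for its gene, giving 9930 genes.

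Groups were taken from the titles. All 19 arrays entered 1 limma fit (limma 3.58.1, R 4.3.3) without a block, with Benjamini-Hochberg adjustment over all genes and calls at an adjusted p under 0.05. The steps were tested on simulated data with independent noise for each gene and array. The simulated arrays had no sets and no shift of all genes, so the test does not cover these features of the data. The members and gene lists were chosen with earlier results of these data known. Named genes were the 10 highest and 10 lowest called fold changes without overlap against naive cells (5 and 5 in the comparisons with CXCR5lo and YFP-sorted cells and in the pair, 3 and 3 between genotypes), the 4 largest called changes of each list, the sort and marker genes, and list members singled out by their role.

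Deviations of same-numbered arrays of the 2 genotypes from their group means correlated at 0.640, 0.596 and 0.572. Replicates 2 and 3 also correlated across numbers (0.555 and 0.427). Deviations cancel within a group, and replicate 1 stood apart in both genotypes, so these values cannot show a pairing by number. Replicates 1 and 2 were from day 7 in Bcl6yfp/+ and from day 10 in Bcl6+/+ cells, and the 2 first arrays shared no set. The replicate number as a block was thus an alternative setting alone. Alternatives were quantile normalization, centring, the set as a block or a random block, the replicate number as a block, day as a covariate, other filters, the mean of probe sets, another variance model, fewer arrays and each replicate left out. Promoters came from RefSeq. Tables and figures were made in Python 3.11.15.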

Additional observations from a re-analysis of the deposited data

Results flagged for a closer look

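In 38 of 110 genes examined, 1 of the 6 CXCR5hi PD-1hi arrays lay farther from its nearest neighbour, as a share of the group's range, than the 95% limit of Dixon's test allows. Chance flags about 1 in 20 groups. Bcl6yfp/+ replicate 1 was that array in 29 genes and Bcl6+/+ replicate 1 in 9, and these are also the arrays with the lower correlations over all genes. Values are log2 levels, each followed by that of the nearest other Tfh array in brackets.

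Bcl6yfp/+ replicate 1 was lowest for Tox2 at 14.02 (14.37), Cxcr5 at 12.92 (13.62), Cebpa at 10.49 (13.66) and Il4 at 10.23 (12.69). It was also lowest for Bcl6 at 13.66 (14.23), Lag3 at 11 (11.85), Lif at 9.03 (11.74) and Slamf1 at 11.10 (11.55). The same array was lowest for Slamf6 at 13.40 (13.98), Rnf128 at 6.18 (8.76), Zap70 at 12.20 (13.39) and Lcp2 at 13.24 (13.63). Further genes with this array lowest were Plcg1 at 14.18 (14.62), Cst7 at 11.03 (11.92), Ctsb at 13.13 (13.79) and Ctsz at 11.63 (12.47). Again lowest in it were Pdlim7 at 9.03 (10.42), Hk2 at 5.48 (7.73), Pgam1 at 12.62 (13.57) and Cox6c at 13.11 (14.40). To these came, as its lowest values, Uqcrc1 at 10.95 (11.95), Cox5a at 12.91 (13.85) and Xbp1 at 9.73 (11.23).

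Bcl6yfp/+ replicate 1 was highest for Igfbp4 at 5.77 (3.65), Ctsw at 4.32 (2.33), Airn at 2.92 (2.37) and Xist at 2.15 (2.02). Airn and Xist were near the floor of the scale, where levels have no order. It was also highest for Klrd1 at 4.95 (2.60) and Ikzf4 at 4.95 (2.62).

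Bcl6+/+ replicate 1 was lowest for Plbd1 at 2.60 (4.09).

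Bcl6+/+ replicate 1 was highest for Ctla2a at 2.84 (2.68), Trim3 at 6.52 (5.37), Zc3h3 at 7.21 (4.66) and Adap1 at 9.31 (6.98). Ctla2a was near the floor, where levels have no order. It was also highest for Ndrg1 at 6.47 (3.69), Jun at 12.85 (12.10), Ighm at 12.61 (11.65) and Fcgr3 at 5.10 (3.14).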

How the results depend on the processing

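Directions of the named genes held more firmly than counts. By the naming rule these were mainly called genes with large changes in the same arrays, so a kept direction was nearly fixed in advance. Of the 3410 calls over all genes against naive cells, 68.9% were also called with quantile normalization and 52.9% with the 8 arrays alone. Over the settings tried, named genes of the comparison with naive cells kept direction and call in 1895 values, lost the call in 121, gained it in 5 and reversed in 2. Those 2 came with the mean of probe sets, Plcg1 at -0.31 and Ighm at 1.75. Against CXCR5lo cells 196 values kept call and direction, 9 lost the call and 5 reversed. With the set as a block Eif2s3y gave -9.25, Kdm5d -6.39 and Xist 9.85, and with the set as a random block Eif2s3y gave -0.62 and Xist 1.01. No set held both Tfh and CXCR5lo arrays, so with the set as a block this contrast ran through the 2 naive arrays. The mean level of the sex-linked genes was 4.99 in naive replicate 1 and 8.11 in naive replicate 2. How far this link moved other genes was not tested. Against YFP-sorted cells 233 kept the call and 25 lost it, all in the same direction.

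Counts of called genes moved by over 1.5 times as follows. Against naive cells the 3410 genes became 1879 with the 8 arrays alone, 837 with arrays of 1 extraction text, 2243 with the replicate number as a block and 5718 without the first array of each genotype, and leaving out 1 replicate gave 1716 (without naive replicate 2) to 5257 (without Bcl6yfp/+ replicate 1), with 1853 without naive replicate 1. For Bcl6yfp/+ cells alone the 2036 became 1191 with 8 arrays, 675 with 1 extraction text and 3236 with the set as a random block, and 1185 (without naive replicate 1) to 4454 (without Bcl6yfp/+ replicate 1) with 1 replicate left out. For Bcl6+/+ cells the 3566 became 1783 with 8 arrays, 822 with 1 extraction text, 1594 with day 7 and naive arrays, and 1850 with the set as a block, and 1783 to 3491 with 1 replicate left out. Between genotypes the set as a block gave 4 genes, Capn3, Tfpi, Tmod4 and Tshz3, named after their values were seen, and the random block 15, while 0 were called with any 1 replicate left out. Against CXCR5lo cells the 1149 became 1793 with the mean of probe sets, 2596 with quantile normalization, 393 with the set as a block, 535 with it as a random block and 2496 without the first arrays, and 724 (without CXCR5lo replicate 2) to 1971 (without Bcl6yfp/+ replicate 1) with 1 replicate left out. Against YFP-sorted cells the 531 became 166 with day 7 and naive arrays, 1454 with the mean of probe sets, 2190 with quantile normalization, 22 with the set as a random block and 2871 without the first arrays, and 259 (without Bcl6yfp/+ replicate 2) to 2278 (without Bcl6yfp/+ replicate 1) with 1 replicate left out. The mean of probe sets turned the splits to 526 higher and 1267 lower against CXCR5lo cells and to 385 higher and 1069 lower against YFP-sorted cells.

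The replicate number as a block ended the calls against naive cells of Anxa4 (adjusted p = 0.278), Fcgr3 (0.105), Fdft1 (0.0678), Fh1 (0.068), Ighm (0.0577), Klf4 (0.0712), Plcg1 (0.0564), Gata3 (0.0561) and Prdm1 (0.252), and of no other named gene. In that block, without naive replicate 1, and with arrays of 1 extraction text, naive replicate 2 alone stood for naive cells. These settings are therefore not separate checks. The settings with arrays of 1 extraction text, with day 7 and naive arrays, and without the first arrays were chosen after seeing the data. Levels at the floor of the scale have no order, and no depth is known for arrays.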
